A study of Mus musculus with 19 samples.

Results

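The effect of dietary cholesterol on liver mRNA was measured over both Gramd1c genotypes together. All 19 mice of the series were used, 10 on the high cholesterol diet and 9 on the low cholesterol diet, and genotype entered the fit as an additive term. The high cholesterol mice were 5 Gramd1c-/- and 5 Gramd1c+/+ mice fed 0.2% (wt/wt) cholesterol. The low cholesterol mice were 4 Gramd1c-/- and 5 Gramd1c+/+ mice fed 0.02% (wt/wt) cholesterol. All mice were female littermates from heterozygous crosses of the strain C57BL/6N-Atm1Brd Gramd1ctm1a(KOMP)Wtsi/JMmucd, were 8 weeks old when the diets began and ate them for 4 weeks. Each mouse gave 1 library of poly(A)-selected liver RNA. Gramd1c encodes Aster-C, an endoplasmic reticulum protein that binds cholesterol arriving from the plasma membrane. The mutant allele was a knockout-first insertion present in every cell, and some Gramd1c transcript was still counted, at 1.07 to 3.61 TPM (a count divided by gene length and scaled to a fixed total per library) in Gramd1c-/- livers, against 9.56 to 15.99 TPM in Gramd1c+/+ livers. The sample labels name both gonadal adipose tissue and liver. Albumin took 5.25% to 9.17% of the counts in every library. Adipoq, the defining adipocyte hormone, had 177 counts (9.46 TPM) in replicate 2 of the Gramd1c+/+ low cholesterol group and at most 13 in any other library. The libraries were therefore treated as liver.

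Cholesterol made in the liver is held in check by end-product feedback. When the endoplasmic reticulum membrane is poor in cholesterol, the escort protein SCAP carries the membrane-bound transcription factor SREBP-2 to the Golgi, where it is cut and released to switch on the genes of cholesterol synthesis. When sterol is plentiful, INSIG proteins retain SCAP and the precursor, and those genes fall quiet. SREBP-1c does the same work for fatty acid synthesis, and oxysterols made from surplus cholesterol activate the nuclear receptor LXR, which drives sterol export.

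Depth was even, with 27149972 to 34669648 counts per library. Other properties of the libraries moved with diet. Genes with at least 1 count numbered 19990 to 22028 (median 20564) in high cholesterol mice, against 18756 to 20590 (median 20032) in low cholesterol mice. The albumin share ran from 5.25% to 7.93% (median 6.54%) in high cholesterol livers and from 6.92% to 9.17% (median 8.25%) in low cholesterol livers. The share of counts on mitochondrially encoded genes ran from 4.63% to 7.27% (median 5.50%) in high cholesterol livers and from 3.23% to 5.29% (median 4.75%) in low cholesterol livers. The 10 intestine and kidney markers, each detected in some mouse, summed to 157 to 404 TPM (median 204) in high cholesterol livers and to 90.4 to 229 TPM (median 111) in low cholesterol livers, most of it Fabp2, the intestinal fatty acid-binding protein. All of these ranges overlapped, and the part of these properties in the results was not tested. Replicate 5 of the Gramd1c-/- high cholesterol group stood farthest along the first principal component, at 83.1, where the 10 high cholesterol mice had a median of 9.35 and the 9 low cholesterol mice a median of -12.6. A further library stood apart by its markers, replicate 2 of the Gramd1c+/+ low cholesterol group, which also had the most Adipoq counts. Its 10 adrenal cortex markers, every one of them detected in some mouse, summed to 699 TPM there, and the sum was 60.1 to 100.3 TPM in high cholesterol mice and had a median of 71.6 TPM in low cholesterol mice. In bulk tissue, fewer cells of a type and less of an RNA per cell cannot be told apart.

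Pooling the genotypes gave 228 genes that differed by diet, of 15016 tested (1.52%). Among them 80 were higher on high cholesterol (0.533%) and 148 were lower (0.986%), by edgeR's quasi-likelihood test at a Benjamini-Hochberg adjusted p below 0.05. DESeq2 called 638 genes, with a more even split of 321 higher and 317 lower. The edgeR test within Gramd1c-/- mice gave 49 genes (0.326%), 5 higher (0.0333%) and 44 lower (0.293%). Within Gramd1c+/+ mice it gave 66 genes (0.44%), 15 higher (0.0999%) and 51 lower (0.34%). These counts come from the same libraries, so the pooled list and the single-genotype lists are not independent. Every gene called in a single genotype was also called in the pooled fit. In all, 41 genes were called in both genotypes, 8 in Gramd1c-/- mice alone and 25 in Gramd1c+/+ mice alone, and 154 were called only when the genotypes were pooled, 64 of them higher and 90 lower.

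The larger sample lowered the size of change that could be called. The median standard error of a gene's log2 fold change was 0.14 in the pooled fit, against 0.20 within Gramd1c-/- mice and 0.19 within Gramd1c+/+ mice. The smallest change called was a log2 fold change of -0.25 for Xrcc5 in the pooled fit. It was -0.64 for Lbr within Gramd1c-/- mice and -0.49 for Tmem41b within Gramd1c+/+ mice. Of the pooled calls, 68 (29.8%) were below 1.5-fold, where the Gramd1c-/- calls had 0 and the Gramd1c+/+ calls had 2 such genes. The 90 added lower genes had a median change of 1.45-fold, and 52 of them were below 1.5-fold. The 64 added higher genes differed from them in size of change and in abundance. Their median change was 2.11-fold, and their median standard error was 0.24 on the log2 scale, against 0.11 for the added lower genes. Their median abundance was 1.10 on the log2 CPM scale (counts scaled to library size, not to length), against 5.22 for the added lower genes. Only a predicted-gene symbol (Gm or Rik) was carried by 43.8% of them, against 11.0% of all genes tested. That share was also 43.8% among all 80 called higher genes, so it was not particular to the added ones.

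**Figure D1:**
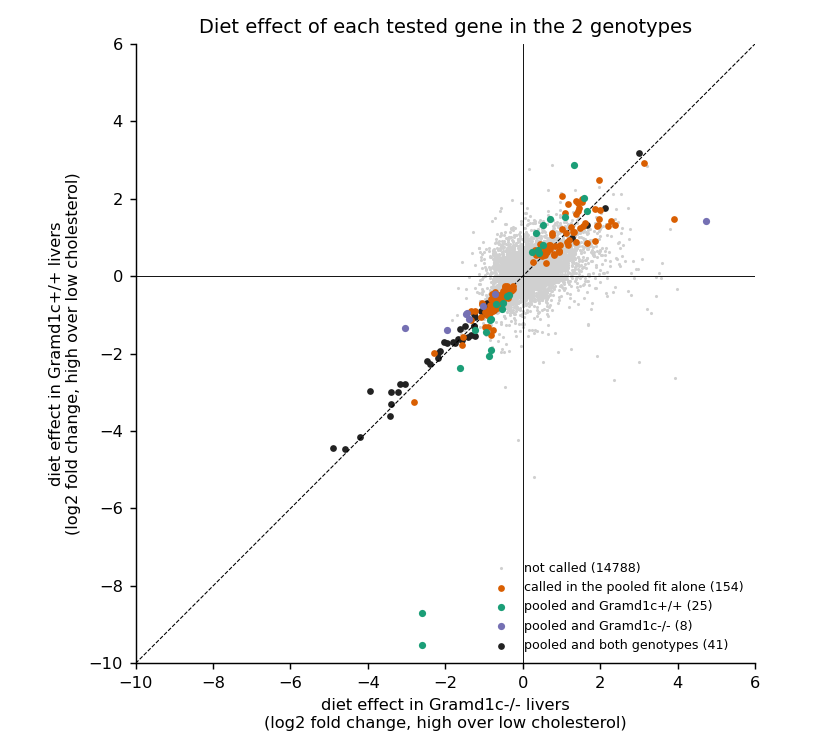
Log2 fold change on high against low cholesterol for every gene tested, in Gramd1c-/- mice on the x axis and in Gramd1c+/+ mice on the y axis, with the genes called in both genotypes, in 1 genotype and only after pooling marked. All 228 called genes lie at the lower left or the upper right of the origin, and of the 154 added by pooling, the lower ones have a median log2 fold change of -0.53 and the higher ones of 1.08.

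The added genes had the same direction in both genotypes. All 228 called genes had the same sign in both, and of the 154 added genes 148 had an unadjusted p below 0.05 in each genotype on its own and 0 had an unadjusted interaction p below 0.05. These counts describe genes that the pooled fit picked for being shared, and they test nothing further. A comparison that shares no mouse was made by fitting each genotype alone. The 9 Gramd1c-/- mice alone gave 38 called genes (0.253%), of which 38 had the same sign, 38 an unadjusted p below 0.05 and 32 a call in the 10 Gramd1c+/+ mice. The 10 Gramd1c+/+ mice alone gave 51 called genes (0.34%), of which 51 had the same sign, 48 an unadjusted p below 0.05 and 32 a call in the Gramd1c-/- mice. Over all genes tested, 68.4% had the same sign in the 2 genotypes.

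The levels of 54 of the 228 genes did not overlap between the 10 high cholesterol and the 9 low cholesterol mice, 46 of them lower and 8 higher on high cholesterol, against 55 of all 15016 genes (0.366%). Of the 154 added genes, 7 separated the diets in this way. A two-sided exact permutation test of TPM that shuffled diet within genotype (31752 splits) gave p from 3.149e-05, the smallest it can give, to 0.00986 over the 228 genes. The genes had been chosen on the same data, so these p-values are not independent of the calls.

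Cholesterol synthesis had the highest share of called members among the lists. Of 20 synthesis enzymes tested, 19 fell on high cholesterol and 0 rose, and their log2 fold changes had a median of -2.05, where all genes tested had 0.02. Within either genotype 18 fell. Over all genes tested, 0.986% were called lower in the pooled fit, 0.293% in Gramd1c-/- mice and 0.34% in Gramd1c+/+ mice. Cyp51, the lanosterol demethylase (5:4081145-4104746, minus strand, GRCm38), had 11.7 to 16.03 TPM (median 14.03) in high cholesterol mice, against 103 to 192 TPM (median 146) in low cholesterol mice. The ranges were far apart, and its log2 fold change was -3.35 ± 0.11 (SE, adjusted p = 1.57e-14). Sqle, the squalene epoxidase and a rate-controlling step, had 1.38 to 2.58 TPM (median 1.92) on high cholesterol and 25.5 to 57.6 TPM (median 43.9) on low cholesterol, with a log2 fold change of -4.53 ± 0.15 (adjusted p = 1.57e-14). Nsdhl, which acts in the removal of the methyl groups at carbon 4, had 7.88 to 12.3 TPM against 59.0 to 95.7 TPM (log2 fold change -2.90 ± 0.11, adjusted p = 4.52e-14). Lss, the cyclase that makes lanosterol, fell less, with 2.44 to 3.98 TPM on high cholesterol against 9.66 to 15.03 TPM on low cholesterol (log2 fold change -2.08 ± 0.10, adjusted p = 3.91e-12).

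The list member that was not called was Ebp, the sterol isomerase, which had 168 to 261 TPM (median 196) on high cholesterol against 238 to 285 TPM (median 244) on low cholesterol and did not pass the test even with all 19 mice (log2 fold change -0.30 ± 0.11, adjusted p = 0.158).

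Genes outside the synthesis pathway that sterols are known to suppress followed at smaller size. Of 22 tested, 12 fell and 0 rose, against 0.986% of all genes tested called lower. Their median log2 fold change was -0.80, and 9 fell within Gramd1c-/- mice and 10 within Gramd1c+/+ mice. Stard4, a soluble sterol carrier, had 13.3 to 31.2 TPM (median 19.4) on high cholesterol and 40.1 to 68.5 TPM (median 54.2) on low cholesterol (log2 fold change -1.37 ± 0.12, adjusted p = 1.43e-07). Tmem97, the sigma-2 receptor, had 72.0 to 100.4 TPM on high cholesterol and 124 to 175 TPM on low cholesterol (log2 fold change -0.70 ± 0.11, adjusted p = 0.000591) and was called in Gramd1c+/+ mice but not in Gramd1c-/- mice, where its change was -0.68 ± 0.16 (adjusted p = 0.093). The interaction p for Tmem97 was 0.878.

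Pooling added 2 lower genes of the machinery that governs these genes, Scap among them. Of 16 genes of the SREBP processing machinery, 4 fell and 1 rose, against 0.986% and 0.533% of all genes tested. Insig1 and Srebf2, which encode the retention protein and SREBP-2 itself, fell in both genotypes, with pooled log2 fold changes of -1.27 ± 0.12 and -1.28 ± 0.15. Scap, the escort protein (9:110333288-110384950, plus strand), was called only in the pooled fit. It had 27.8 to 55.4 TPM (median 35.9) on high cholesterol, against 43.6 to 75.8 TPM (median 54.7) on low cholesterol, with overlapping ranges and a log2 fold change of -0.53 ± 0.11 (adjusted p = 0.0124). Rnf145, a ubiquitin ligase that LXR is known to induce, rose to a median of 8.83 TPM on high cholesterol, against 6.35 TPM on low cholesterol (log2 fold change 0.44 ± 0.10, adjusted p = 0.0208). Srebf1, the gene of SREBP-1, had a median of 120.3 TPM on high cholesterol and 94.8 TPM on low cholesterol and did not pass (log2 fold change 0.38 ± 0.15, adjusted p = 0.186).

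Matches to the letters of the sequence element known for SREBP can be shown for a few called genes. The letters TCACNCCAC, which cover the classical sterol regulatory element, were searched on both strands from 250 bases before to 50 bases after each gene start (RefSeq, GRCm38.p6). The letters were present in 1.24% of 32851 promoter windows. Only 158 of the 228 called genes (69.3%) could be matched to a window, which is below 80%, so a comparison of shares between called and other genes is void and is not given. The next sequences show the match, in capitals, in a gene called in both genotypes, in a further such gene, in 2 lower genes added by pooling and in 1 higher gene added by pooling, each read 5′ to 3′ on the gene's own strand.
Hmgcs1 (lower in both genotypes, chr13:119690178-119690258, plus strand): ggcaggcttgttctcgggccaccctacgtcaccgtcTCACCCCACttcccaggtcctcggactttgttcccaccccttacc
Aldoc (lower in both genotypes, chr11:78322957-78323037, plus strand): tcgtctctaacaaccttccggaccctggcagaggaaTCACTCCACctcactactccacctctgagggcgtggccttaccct
Slc2a8 (lower, added by pooling, chr2:32982199-32982279, minus strand): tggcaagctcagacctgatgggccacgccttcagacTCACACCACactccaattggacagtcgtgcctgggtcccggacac
Papss1 (lower, added by pooling, chr3:131565857-131565937, plus strand): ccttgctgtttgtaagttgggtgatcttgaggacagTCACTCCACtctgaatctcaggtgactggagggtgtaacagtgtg
Mlxipl (higher, added by pooling, chr5:135106719-135106799, plus strand): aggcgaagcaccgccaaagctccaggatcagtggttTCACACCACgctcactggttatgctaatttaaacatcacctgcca
The match began 137 bases before the start of Hmgcs1, 80 before that of Aldoc, 160 before that of Slc2a8, 139 before that of Papss1 and 136 before that of Mlxipl. A match is a description of the letters and not evidence of binding. Hmgcs1, the cytosolic HMG-CoA synthase, had 49.0 to 93.4 TPM on high cholesterol against 183 to 530 TPM on low cholesterol (log2 fold change -2.33 ± 0.16). Aldoc, an aldolase, had 1.76 to 3.23 TPM against 7.48 to 10.3 TPM (log2 fold change -1.85 ± 0.13). The 2 added lower genes shown here moved far less. They do not stand for all added genes with a match, whose log2 fold changes reached 1.70, for Malat1. Slc2a8, a sugar transporter, had a log2 fold change of -0.33 ± 0.07 (adjusted p = 0.0255), and Papss1, which makes the sulfate donor PAPS, had one of -0.48 ± 0.11 (adjusted p = 0.0254).

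**Figure D2:**
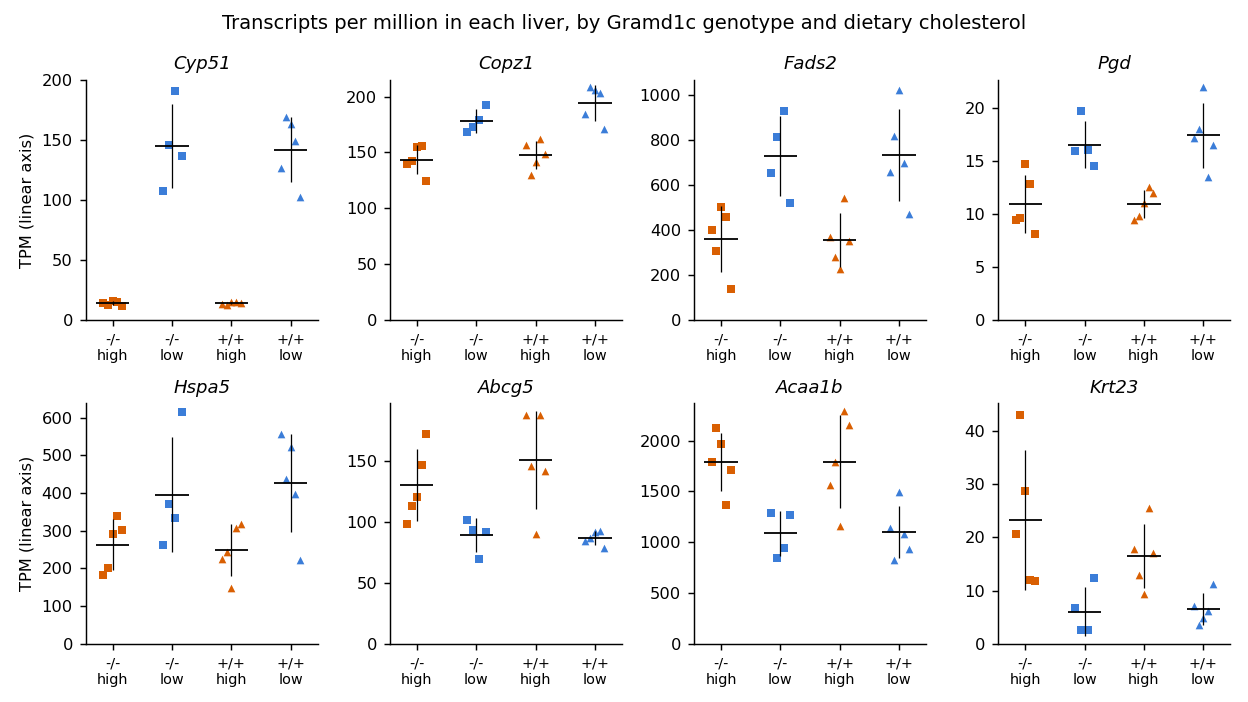
TPM of 8 genes in each mouse, with Gramd1c-/- high, Gramd1c-/- low, Gramd1c+/+ high and Gramd1c+/+ low cholesterol from left to right. Points are mice, bars are group means and lines are ± SD. Cyp51 and Copz1 separate the diets completely, with Copz1 at 124 to 162 TPM in high and 168 to 208 TPM in low cholesterol mice, while Fads2, Pgd, Hspa5, Acaa1b, Krt23 and Abcg5 overlap.

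Fatty acid synthesis gained several calls from the larger sample. Of 20 genes tested, 10 fell and 1 rose in the pooled fit, against 0.986% and 0.533% of all genes tested. Within Gramd1c-/- mice 5 fell and within Gramd1c+/+ mice 2, and the median pooled log2 fold change was -0.64. Acss2, which makes acetyl-CoA from acetate, fell in both genotypes, to 10.7 to 22.8 TPM on high cholesterol against 28.9 to 74.1 TPM on low cholesterol (log2 fold change -1.61 ± 0.18, adjusted p = 4.82e-06). Acly (ATP citrate lyase), Fasn (fatty acid synthase) and Slc25a1 (the mitochondrial citrate carrier) were called within Gramd1c-/- mice and not within Gramd1c+/+ mice. Their pooled log2 fold changes were -1.24 ± 0.20, -1.19 ± 0.22 and -0.59 ± 0.10, and their interaction p-values were 0.523, 0.252 and 0.205. For none of these 3 was a difference between genotypes shown.

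Genes of this list called only after pooling were Fads2, Elovl5, Me1, Mid1ip1 and Acacb among those that fell. Me1, the cytosolic malic enzyme that makes NADPH, had 50.4 to 129.9 TPM (median 90.3) on high cholesterol against 122 to 179 TPM (median 141) on low cholesterol (log2 fold change -0.67 ± 0.13, adjusted p = 0.00985). Acacb, the mitochondrial acetyl-CoA carboxylase, had a log2 fold change of -1.12 ± 0.25 (adjusted p = 0.0255), and Mid1ip1, which helps the carboxylase to polymerise, one of -0.55 ± 0.12 (adjusted p = 0.0191). The cytosolic carboxylase Acaca did not pass, with a median of 6.60 TPM on high cholesterol against 12.3 TPM on low cholesterol (log2 fold change -0.62 ± 0.18, adjusted p = 0.0901). Scd1, the stearoyl-CoA desaturase, was too variable for a statement, at 136 to 5793 TPM on high cholesterol and 499 to 3062 TPM on low cholesterol (log2 fold change 0.30 ± 0.42, adjusted p = 0.722). Mlxipl, which encodes the carbohydrate-responsive factor ChREBP, was the member that rose, to a median of 51.2 TPM (34.8 to 151) on high cholesterol against 35.4 TPM (24.5 to 43.4) on low cholesterol. Its adjusted p was 0.0494, and it was called in 6 of the 19 fits that left out 1 mouse.

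Genes that make and activate polyunsaturated fatty acids were the next list. It shares members with the fatty acid synthesis list, Fads2 and Elovl5 among them, so the counts of these lists overlap. Of 18 genes tested, 8 fell and 0 rose, against 0.986% of all genes tested called lower. Their median log2 fold change was -0.46, and 3 fell within either genotype. Fads1, the delta-5 desaturase, was called in each genotype (pooled log2 fold change -0.89 ± 0.13, adjusted p = 0.000362), and so were the acyl-CoA synthetases Acsl3 (-1.14 ± 0.11) and Acsl4 (-0.81 ± 0.11). Fads2, the delta-6 desaturase that acts before Fads1 (19:10064164-10101503, minus strand), had 136 to 542 TPM (median 361) on high cholesterol and 472 to 1023 TPM (median 697) on low cholesterol. Its ranges overlapped, and the log2 fold changes of -1.08 ± 0.27 in Gramd1c-/- mice (adjusted p = 0.167) and -1.04 ± 0.26 in Gramd1c+/+ mice (adjusted p = 0.131) were nearly equal. Pooling gave -1.06 ± 0.19 (adjusted p = 0.00265, exact permutation p = 0.000157). Elovl5, the elongase that follows it (9:77917364-77984519, plus strand), had 181 to 361 TPM (median 262) on high cholesterol against 247 to 575 TPM (median 487) on low cholesterol (log2 fold change -0.78 ± 0.15, adjusted p = 0.00503). Also added were Acsl5 (-0.66 ± 0.11, adjusted p = 0.00124), Hsd17b12, the ketoacyl reductase of the elongation cycle (-0.49 ± 0.08, adjusted p = 0.00197), and Elovl2 (-0.59 ± 0.14, adjusted p = 0.0315). Fads1 was thus the only desaturase or elongase of the list called within a genotype.

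Pgd, the phosphogluconate dehydrogenase of the pentose phosphate pathway, which makes NADPH (4:149149991-149166771, minus strand), had the smallest p of all added genes that fell. It had 8.10 to 14.7 TPM (median 10.4) on high cholesterol and 13.5 to 22.0 TPM (median 16.5) on low cholesterol. On the log2 scale it differed by -0.65 ± 0.15 in Gramd1c-/- mice (adjusted p = 0.085), -0.63 ± 0.14 in Gramd1c+/+ mice (adjusted p = 0.0522) and -0.64 ± 0.10 pooled (adjusted p = 0.000784). Idh1, the cytosolic isocitrate dehydrogenase, which was picked after its value had been seen, had 246 to 396 TPM (median 313) on high cholesterol against 375 to 472 TPM (median 423) on low cholesterol (log2 fold change -0.41 ± 0.08, adjusted p = 0.00577). Cyp2r1, the liver vitamin D 25-hydroxylase, was a further added gene with a small p, at 8.30 to 14.4 TPM (median 12.0) on high cholesterol against 14.2 to 19.97 TPM (median 16.3) on low cholesterol (log2 fold change -0.56 ± 0.09, adjusted p = 0.00167).

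**Figure D3:**
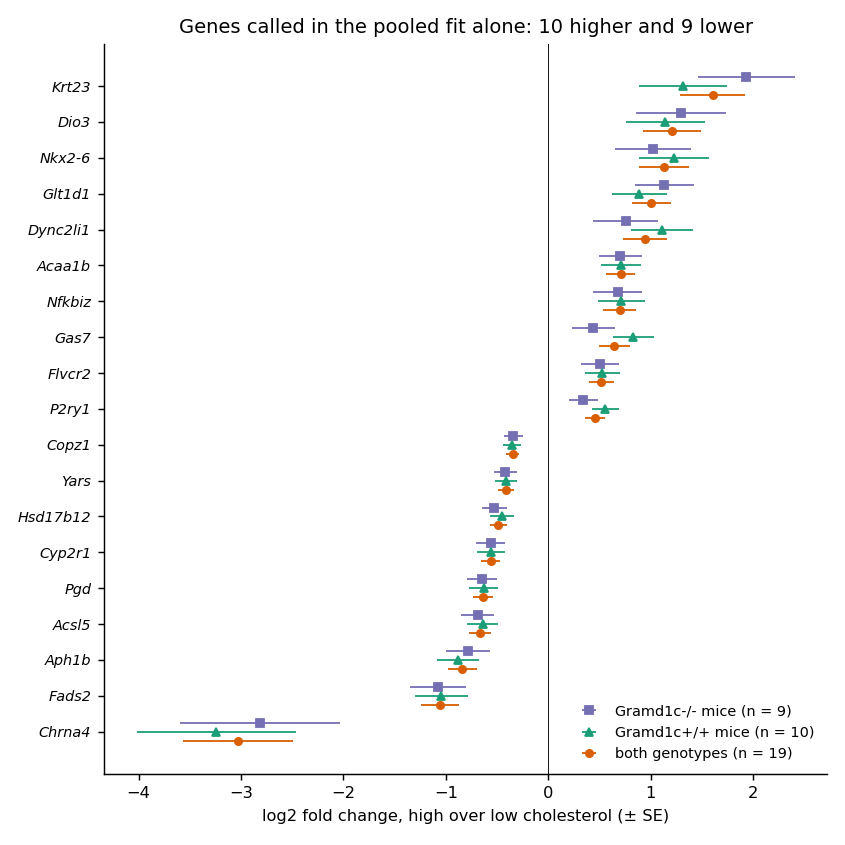
Log2 fold change on high against low cholesterol (± SE) of 19 genes called only in the pooled fit, for Gramd1c-/- mice, Gramd1c+/+ mice and both genotypes. The genotype values lie close to each other, as for Pgd at -0.65 and -0.63, and the pooled bars are shorter.

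The folding machinery of the endoplasmic reticulum had calls only in the pooled fit. Of 27 chaperones and unfolded protein response genes, 4 fell and 0 rose there, against 0.986% of all genes tested called lower. Within either genotype 0 were called. Only 0.293% and 0.34% of all genes were called lower within Gramd1c-/- and Gramd1c+/+ mice, so 0 of 27 is near that share. The median log2 fold change was -0.34, with 25 of 27 below 0. A further 14 lower members had an unadjusted p below 0.05, which made 18 of 27, where 18.4% of all genes tested had such a p in either direction. Hspa5, the main chaperone BiP (2:34771970-34777547, plus strand), had 147 to 339 TPM (median 267) on high cholesterol and 222 to 614 TPM (median 396) on low cholesterol. Its ranges overlapped widely, and its log2 fold changes were -0.61 ± 0.25 in Gramd1c-/- mice, -0.77 ± 0.24 in Gramd1c+/+ mice and -0.69 ± 0.17 pooled (adjusted p = 0.0416, exact permutation p = 0.00472). The disulfide isomerases Pdia4 and Pdia6 had log2 fold changes of -0.53 ± 0.11 (adjusted p = 0.0191) and -0.44 ± 0.10 (adjusted p = 0.0195), and calnexin (Canx) had one of -0.35 ± 0.09 (adjusted p = 0.0483). Calreticulin (Calr) had a median of 619 TPM on high cholesterol against 839 TPM on low cholesterol and did not pass (log2 fold change -0.45 ± 0.12, adjusted p = 0.0676). Hspa5 was called in 5 and Canx in 4 of the 19 fits that left out 1 mouse, whereas Pdia4 was called in 19 and Pdia6 in 18. The number of called list members that fell ranged from 1 to 10 over those fits and was 12 with DESeq2.

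Genes of protein entry into and transport out of the endoplasmic reticulum were also among the added lower genes. The coat protein subunit Copz1 had the clearest separation, with 124 to 162 TPM (median 145) on high cholesterol against 168 to 208 TPM (median 184) on low cholesterol and no overlap (log2 fold change -0.35 ± 0.06, adjusted p = 0.00488). Sec61a1, the channel through which new chains enter, had a log2 fold change of -0.54 ± 0.11 (adjusted p = 0.011), and Srpr, the signal recognition particle receptor, had one of -0.51 ± 0.12 (adjusted p = 0.0359). The oligosaccharyltransferase subunits Rpn1 (-0.48 ± 0.10, adjusted p = 0.0192) and Stt3a (-0.44 ± 0.11, adjusted p = 0.0377) and the cargo receptor Lman1 (-0.42 ± 0.09, adjusted p = 0.0181) fell as well. These genes were not a list; all but Copz1 were picked after their values had been seen, so no count is drawn from them.

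On the sterol export side, 2 of 22 LXR target and sterol export genes rose and 1 fell, against 1.52% of all genes called in either direction, and the median log2 fold change was 0.08. An unadjusted p below 0.05 was found for 10 of them (45.5%), against 18.4% of all genes, and DESeq2 called 5. Abcg5, which forms with Abcg8 the transporter of cholesterol into bile (17:84658234-84683011, minus strand), rose to 89.9 to 188 TPM (median 144) on high cholesterol, against 69.2 to 102 TPM (median 91.4) on low cholesterol. Its log2 fold changes were 0.53 ± 0.18 in Gramd1c-/- mice (adjusted p = 0.337), 0.82 ± 0.17 in Gramd1c+/+ mice (adjusted p = 0.035) and 0.68 ± 0.13 pooled (adjusted p = 0.00488), and the interaction p was 0.265. Abcg8, its partner, did not pass (log2 fold change 0.32 ± 0.14, adjusted p = 0.234), nor did Abca1, the transporter that loads HDL, at a median of 25.1 TPM on high cholesterol and 28.1 TPM on low cholesterol (log2 fold change 0.01 ± 0.15, adjusted p = 0.979). Pltp, the phospholipid transfer protein and also an LXR target, fell to a median of 24.98 TPM on high cholesterol against 52.6 TPM on low cholesterol (log2 fold change -1.32 ± 0.21, adjusted p = 0.00116).

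Bile acid genes gave no call by edgeR, which in lists of 18 genes is near the 1.52% called over all genes tested. Of 18 synthesis enzymes 0 were called by edgeR, with 2 (11.1%) at an unadjusted p below 0.05 and 2 called by DESeq2. Of 18 transport and FXR genes 0 were called by edgeR, with 5 (27.8%) at an unadjusted p below 0.05 and 0 called by DESeq2. Over all genes tested, 18.4% had such a p. Cyp7a1, the rate-limiting enzyme of bile acid synthesis, had 17.9 to 124 TPM (median 80.0) on high cholesterol and 5.25 to 107 TPM (median 58.1) on low cholesterol. That spread left a log2 fold change of 0.60 ± 0.40 (adjusted p = 0.42), which was not detectable with these mice. Cyp8b1, the sterol 12-alpha-hydroxylase, had 96.2 to 328 TPM (median 187) on high cholesterol against 245 to 398 TPM (median 339) on low cholesterol (log2 fold change -0.69 ± 0.21, adjusted p = 0.0959).

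**Figure D4:**
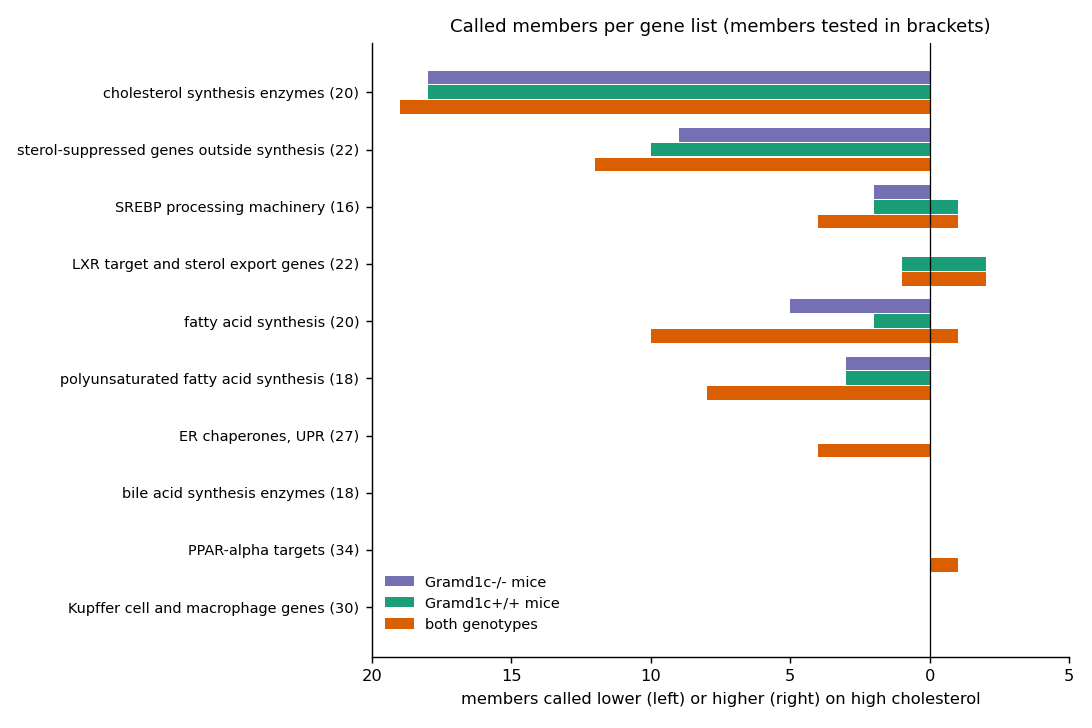
Number of list members called on high against low cholesterol in Gramd1c-/- mice, in Gramd1c+/+ mice and in both genotypes together, for 10 gene lists with the number of genes tested in brackets. Cholesterol synthesis hardly gains, with 18 in either genotype and 19 pooled, while fatty acid synthesis and the endoplasmic reticulum list gain most of their calls by pooling. The fatty acid synthesis and polyunsaturated fatty acid lists share members.

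Of the 80 genes that rose, 4 were called in both genotypes. Adam11, a membrane protein of the ADAM family without protease activity (11:102761439-102780262, plus strand), had 5.25 to 21.6 TPM (median 10.6) on high cholesterol against 0.703 to 1.87 TPM (median 1.40) on low cholesterol and did not overlap (log2 fold change 3.10 ± 0.28, adjusted p = 2.19e-07). Tpm2, a tropomyosin, had 7.23 to 26.3 TPM (median 10.3) on high cholesterol against 2.67 to 5.64 TPM (median 4.31) on low cholesterol (log2 fold change 1.48 ± 0.20, adjusted p = 0.000104). Inmt, an N-methyltransferase, had 896 to 1693 TPM (median 1269) on high cholesterol against 394 to 1049 TPM (median 568) on low cholesterol, and the diets overlapped through 1 low cholesterol mouse (log2 fold change 1.13 ± 0.16, adjusted p = 0.000267). Gdf15, a secreted stress cytokine, rose to a median of 17.0 TPM (8.62 to 37.6) on high cholesterol, against 4.56 TPM (1.96 to 10.9) on low cholesterol (log2 fold change 1.82 ± 0.31, adjusted p = 0.00188). Within the genotypes it was called in Gramd1c+/+ mice (adjusted p = 0.035) and not in Gramd1c-/- mice (adjusted p = 0.257). It was the single call among 26 genes of the integrated stress response, whose median log2 fold change was 0.10. Over all genes tested 1.52% were called, so 1 call in a list of this size is near that share. An unadjusted p below 0.05 was found for 2 of the 26 (7.69%), against 18.4% of all genes tested.

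Of the protein-coding genes that rose only after pooling, Acaa1b had the most abundant transcript named here. It encodes a peroxisomal thiolase and is a target of PPAR-alpha (9:119148023-119157093, minus strand). Its level was 1157 to 2292 TPM (median 1785) in high cholesterol mice and 824 to 1498 TPM (median 1078) in low cholesterol mice, with overlap. The log2 fold changes were 0.70 ± 0.21 in Gramd1c-/- mice (adjusted p = 0.284), 0.71 ± 0.20 in Gramd1c+/+ mice (adjusted p = 0.212) and 0.71 ± 0.14 pooled (adjusted p = 0.00908). It was the single call among 34 PPAR-alpha target and fatty acid oxidation genes, of which 16 had a positive and 18 a negative log2 fold change. Over all genes tested 1.52% were called, so 1 call in a list of this size is near that share. An unadjusted p below 0.05 was found for 9 of the 34 (26.5%), against 18.4% of all genes tested. Krt23, a keratin (11:99477974-99493137, minus strand), had 9.39 to 43.1 TPM (median 17.4) on high cholesterol against 2.54 to 12.4 TPM (median 6.15) on low cholesterol (log2 fold change 1.61 ± 0.32, adjusted p = 0.00929). The 12 cholangiocyte markers summed to 76.7 to 250 TPM (median 93.6) in high cholesterol livers and to 62.9 to 92.2 TPM (median 85.3) in low cholesterol livers, and the part of such cells in the Krt23 result was not tested. Glt1d1, a glycosyltransferase family member, had 15.8 to 30.8 TPM against 7.64 to 22.2 TPM (log2 fold change 1.01 ± 0.19, adjusted p = 0.00643), and P2ry1, a receptor for ADP, had 5.59 to 8.95 TPM against 4.06 to 6.15 TPM (log2 fold change 0.46 ± 0.10, adjusted p = 0.0148).

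Many of the added higher genes were of low abundance, with 24 of 64 (37.5%) below 0 on the log2 CPM scale, against 17.2% of all genes tested. Malat1, a long noncoding RNA retained in the nucleus, had 27.0 to 282 TPM (median 37.2) on high cholesterol and 6.90 to 27.1 TPM (median 20.1) on low cholesterol (log2 fold change 1.70 ± 0.41, adjusted p = 0.0364). Leng8 (0.88 ± 0.21) and Ccnl1 (0.99 ± 0.24), which act in mRNA processing, were added with adjusted p-values of 0.036 and 0.0364. These 3 were picked after their values had been seen. Each was highest in replicate 5 of the Gramd1c-/- high cholesterol group, the library that stood apart, with 282 TPM for Malat1 where the next mouse had 69.2, 22.2 TPM for Leng8 where the next had 10.2, and 18.4 TPM for Ccnl1 where the next had 8.50. Without that mouse their log2 fold changes were 1.10, 0.66 and 0.73, with adjusted p-values of 0.0241, 0.0182 and 0.0169. Counts on noncoding genes made up 0.715% to 1.47% of each library (median 0.855%) in high cholesterol mice, against 0.604% to 0.997% (median 0.777%) in low cholesterol mice.

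Most of the added calls were lost when the fit included the number of genes detected per library. When that number was entered as a covariate, a step chosen after the data had been seen, the pooled fit called 66 genes in place of 228. Of the genes called in a single genotype, 48 of 58 lower and 6 of 16 higher genes were still called. Of the genes added by pooling, 4 of 90 lower and 2 of 64 higher genes were still called. All of them kept their sign, and 77 of the 90 and 52 of the 64 had an unadjusted p below 0.05. The median log2 fold change of the added lower genes was -0.36 with the covariate, against -0.53 without it. That of the added higher genes was 0.71 with the covariate, against 1.08 without it. Median standard errors were wider with the covariate, at 0.13 against 0.11 for the added lower and 0.26 against 0.24 for the added higher genes. The added genes lie nearer the cut by the way they were picked, so part of the loss of calls is fixed by that choice. Acaa1b was still called, at 0.90 (adjusted p = 0.0168), while Fads2 had -0.67 (adjusted p = 0.238) and Abcg5 0.70 (adjusted p = 0.0786). With the covariate, called members numbered 18 in cholesterol synthesis (19 without it), 2 in fatty acid synthesis (11 without it), 2 in polyunsaturated fatty acid synthesis (8 without it), 0 in the endoplasmic reticulum list (4 without it) and 0 in the LXR list (3 without it). The fatty acid lists share members, so their counts overlap. The number of genes detected differs by diet itself, so the fit with the covariate cannot fully separate the diet from the library property. Which of them moves the added genes was not tested.

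The calls of the added genes also changed more often when 1 mouse was left out. Genes called only after pooling lie nearer the cut by the way they were picked. More of them are therefore lost in any such fit, and these counts test nothing about single mice. Of the genes called in a single genotype, 56 of 58 lower (96.6%) and 12 of 16 higher (75%) were called in all 19 fits that left out 1 mouse. The same held for 43 of the 90 added lower genes (47.8%) and 18 of the 64 added higher genes (28.1%). The number of genes added by pooling was 92 without replicate 2 of the Gramd1c-/- low cholesterol group and 274 without replicate 5 of the Gramd1c+/+ low cholesterol group. Without replicate 5 of the Gramd1c-/- high cholesterol group, which stood apart on the first principal component, 84 of the 90 and 48 of the 64 were still called, and without the mouse with high adrenal markers 69 and 47. The endoplasmic reticulum list had 9 called members without the first of these mice. Pgd, Fads2, Acsl5, Elovl5, Scap, Copz1, Acaa1b and Krt23 were called in all 19, and Elovl2 in 12, Acacb in 14 and Malat1 in 11. The library numbers were split here into 2 runs, of lower and of higher numbers. The labels do not say whether these numbers mark a batch, and they show other gaps as well. Run 1 alone (5 high and 6 low cholesterol mice) called 121 genes, 92 of them among the 228, and run 2 alone (5 high and 3 low cholesterol mice) called 28, 27 of them among the 228.

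**Figure D5:**
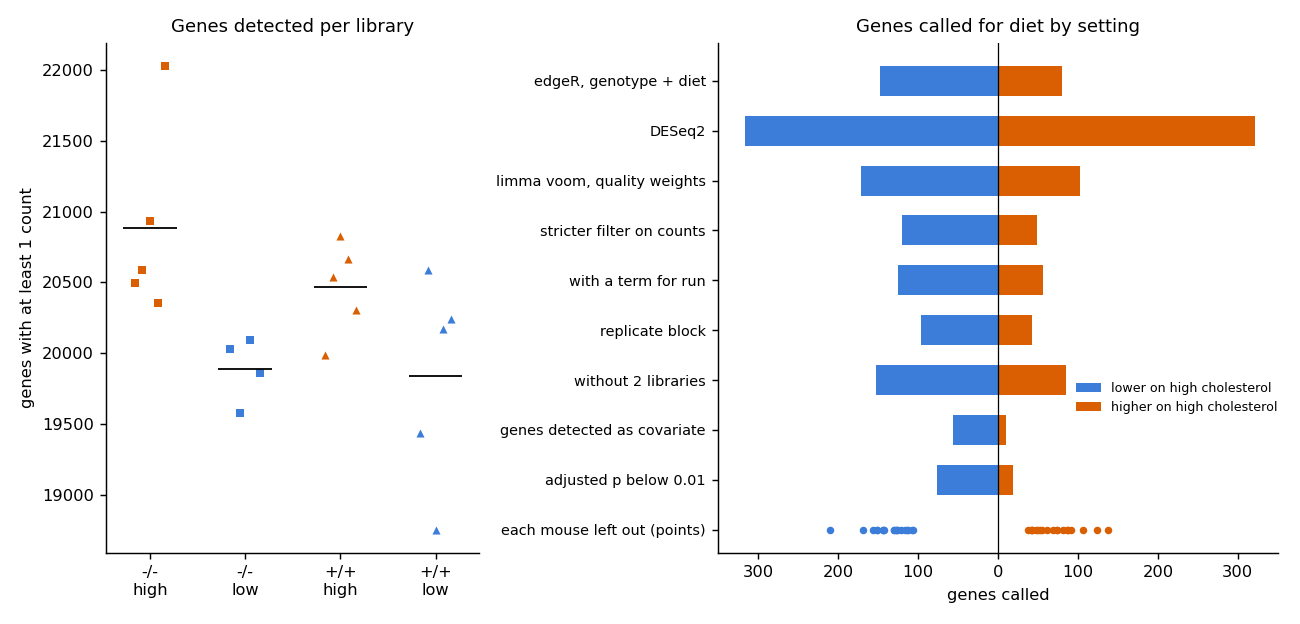
Left, number of genes with at least 1 count in each library, by genotype and diet, with the group means as lines. Right, number of genes called lower (left of 0) and higher (right of 0) on high cholesterol over both genotypes in the main fit and under selected alternatives, with the fits that left out 1 mouse as points. The main fit called 228 genes, the fits without 1 mouse 145 to 348, and the covariate for genes detected left 66.

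Pooling assumes the same diet effect in both genotypes, and the interaction is the test of that. It gave 0 called genes of 15016 (0%), with 250 at an unadjusted p below 0.05 (1.66%) by edgeR, and 0 called with 260 at an unadjusted p below 0.05 by DESeq2. The smallest adjusted p was 0.9999. Of the 33 genes called in 1 genotype but not in the other, 33 had the same sign in both, 28 had an unadjusted p below 0.05 in the other genotype, and 6 had an unadjusted interaction p below 0.05. Spsb4, a ubiquitin ligase adaptor, was among the called genes whose values differed most, at a log2 fold change of 0.70 ± 0.28 in Gramd1c-/- mice and 1.47 ± 0.26 in Gramd1c+/+ mice, a difference that did not pass the interaction test. A difference that did not pass does not show that the genotypes respond alike. The median standard error of a diet effect within either genotype was near 0.2 on the log2 scale. That of a difference between the genotypes is larger still, so modest differences for single genes could not be detected.

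Some called genes carry a limit of their own. Hsd3b1 and Cyp21a1, steroid-making enzymes of the adrenal cortex, were called lower. Most of their low cholesterol signal came from 1 mouse, the replicate with high adrenal markers, at 198 and 191 TPM. In the other 18 mice Hsd3b1 was at most 1.475 TPM and Cyp21a1 at most 0.731 TPM. Without that mouse Hsd3b1 was still called by edgeR (adjusted p = 0.0199) and Cyp21a1 was not (adjusted p = 0.0745). With all mice, DESeq2 called 0 of the 5 adrenal cortex markers tested. Among the called genes, 9 pairs lie within 5 kb of each other and 8 of them moved in the same direction. In 2 pairs the genes overlap (Acsl3 with Utp14b, and Nkx2-6 with a predicted gene), and reads from the shared part cannot be told apart. The first pair lies on the same strand, and for the second, on opposite strands, the strand setting of the counting is unknown.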

How the data were processed

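Liver RNA of 19 mice was sequenced, with 1 library per mouse. The authors deposited raw gene counts, not normalized, 1 table per mouse, with gene length and position. Per the labels, reads were aligned with STAR 2.5.2b to GRCm38. Counter, strand setting and annotation release: not given in the sources used here. No libraries were pooled, and no 2 held identical values.

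Counts were tested with edgeR 4.0.16 (limma 3.58.1, R 4.3.3): TMM, filterByExpr by the 4 groups with a minimum count of 10, and the quasi-likelihood F test. Genotype was additive in the pooled fit, and the single-genotype effects and the interaction used 1 coefficient per group over all 19 mice. A call was a p below 0.05 after Benjamini-Hochberg adjustment over 15016 of 49315 genes. Fold changes are high over low cholesterol, and each is given with its standard error, computed from the fit. TPM was computed from counts and length. Depth, at a median of 30159347 counts, covers counting error only, and p-values measure the spread between mice. Scripts were tested on simulated data. Tables were handled with Python 3.11.15, numpy 2.4.6 and pandas 2.3.3, and DESeq2 1.42.0 was an alternative.

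The members and the 48 gene lists were chosen with earlier results of these data known. Named genes were, by smallest pooled p, 15 that were higher and 15 that were lower, the 10 higher and 10 lower among those called in neither genotype, up to 4 members per list, and up to 3 called genes with the largest genotype difference. Predicted genes were counted without being named. A few genes so selected are left unreported. Genes outside it (further list members, Idh1, Malat1, Leng8, Ccnl1, the secretory genes, the genes with the smallest change and those with a promoter match) were chosen after their values were seen. Alternatives were other scalings, filters, tests, covariates, thresholds and samples.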

Additional observations from a re-analysis of the deposited data

Results flagged for a closer look

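Within a group of 4 or 5 mice, 13 of 288 groups examined (4.51%) had 1 mouse far from the others by Dixon's criterion, where chance alone flags about 1 in 20. Among genes lower on high cholesterol there were several. Stard4 was at 27.74 TPM and Pdia6 at 179.1 TPM in replicate 3 of the Gramd1c-/- high cholesterol group. In the Gramd1c-/- low cholesterol group, Msmo1 was at 99.55 TPM and Pltp at 109.0 TPM in replicate 3, and Cyp2r1 was at 18.84 TPM in replicate 4.

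Among genes higher on high cholesterol, Inmt was at 1049 TPM and Glt1d1 at 22.16 TPM in replicate 5 of the Gramd1c+/+ low cholesterol group, where the other mice had 562.1 to 677.6 TPM and 7.644 to 10.56 TPM. The same mouse, when left out, gave the highest number of called genes. Spsb4 was at 3.404 TPM in replicate 2 of the Gramd1c-/- high cholesterol group. The adrenal enzymes Hsd3b1 and Cyp21a1 were at 198.2 and 190.6 TPM in replicate 2 of the Gramd1c+/+ low cholesterol group. Cyp21a1 was also at 0.3038 TPM in replicate 5 of the Gramd1c-/- high cholesterol group and at 0.2115 TPM in replicate 1 of the Gramd1c+/+ high cholesterol group, where the other mice had 0. Mitochondrially encoded genes took 7.265% of the counts in replicate 3 of the Gramd1c+/+ high cholesterol group, against 5.171% to 5.565% in the other mice.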

How the results depend on the processing

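Of 2507 values of named called genes under the alternatives, 2171 kept their call, 336 kept their sign without the call and 0 changed sign. For diet over both genotypes (228 genes), DESeq2 called 638, limma on log2(TPM + 1) 142, a minimum log2 fold change of 1 left 20, an adjusted p below 0.01 left 95, and the 2 runs of library numbers alone gave 121 and 28. Leaving out 1 mouse gave 145 (without replicate 2 of the Gramd1c-/- low cholesterol group) to 348 (without replicate 5 of the Gramd1c+/+ low cholesterol group), and 147 without replicate 2 of the Gramd1c+/+ high cholesterol group. For the 154 added genes, DESeq2 gave 499, an adjusted p below 0.01 gave 57, and leaving out 1 mouse 92 to 274. DESeq2 gave 94 in place of 49 genes in Gramd1c-/- mice and 111 in place of 66 in Gramd1c+/+ mice. Called genes that belong to a list numbered 62, and 104 with DESeq2, 16 with the minimum fold change, 21 in run 2 alone, and 52 to 82 with 1 mouse left out. Alternatives chosen after seeing the data were genes detected as a covariate (66 called genes, 36 of them in a list), and leaving out the 2 libraries that stood apart (238). The cause of these changes was not tested. A filter of at least 50 counts in 9 mice gave 169, no filter 226, DESeq2's size factors 227 and no genotype term 250. Genes called in both genotypes fitted alone numbered 32, and 25 to 33 with 1 mouse left out. The replicate numbers share no stated origin, and same-numbered mice did not deviate together (mean r = -0.07 over 27 pairs, against 0.02 over 108 other pairs). With them as a block, 139 genes were called over both genotypes, 91 were added, and 36 and 47 were called in Gramd1c-/- and Gramd1c+/+ mice.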

Other observations

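Of the 154 added genes 23 belong to one of the 48 lists. Of 28 acute phase genes 2 were called by edgeR and 7 by DESeq2, where edgeR called 1.52% of all genes tested. An unadjusted p below 0.05 was found for 15 (53.6%), against 18.4% of all genes tested. Orm3, an orosomucoid, rose to a median of 21.4 TPM on high cholesterol against 10.1 TPM on low cholesterol (log2 fold change 1.21 ± 0.29, adjusted p = 0.0364), and Itih3, an inhibitor heavy chain that binds hyaluronan, fell to a median of 393 TPM against 539 TPM (log2 fold change -0.48 ± 0.10, adjusted p = 0.0166). Plin4, a lipid droplet coat protein, was the single call among 23 cholesterol ester and lipid droplet genes, of which 9 (39.1%) had an unadjusted p below 0.05 and 3 were called by DESeq2, at a median of 1.46 TPM on high cholesterol against 0.629 TPM on low cholesterol (log2 fold change 1.43 ± 0.34, adjusted p = 0.0364). Both Orm3 and Plin4 were called in 11 of the 19 fits that left out 1 mouse.

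Lists of other liver cells and of interferon-stimulated genes gave 0 calls by edgeR. Of all genes tested 1.52% were called and 18.4% had an unadjusted p below 0.05, so 0 calls in lists of this size is near the share over all genes. The 9 cholangiocyte markers had 3 at an unadjusted p below 0.05 (33.3%) and 0 called by either tool. The 30 Kupffer cell and macrophage genes had 3 at an unadjusted p below 0.05 and 1 called by DESeq2. The 24 stellate cell and fibrosis genes and 20 sinusoidal endothelial genes each had 0 at an unadjusted p below 0.05 and 0 called by DESeq2. The 33 interferon-stimulated genes had 5 at an unadjusted p below 0.05 and 3 called by DESeq2. The summed Kupffer cell list was 594 to 2131 TPM (median 976) in high cholesterol livers and 793 to 1276 TPM (median 1047) in low cholesterol livers. Of 37 oxidative phosphorylation subunits, 30 had a positive log2 fold change, with 0 called by edgeR, 2 at an unadjusted p below 0.05 and 0 called by DESeq2.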
